A study of Rattus norvegicus with 22 samples.

Results

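The mRNA of COL1A1 and COL3A1, the genes of the fibrillar collagens type I and III, was followed in the rat calcaneal tendon (CT) at 3, 14 and 28 days after an injury of the gastrocnemius (GA) muscle. Both genes were taken by name from a qRT-PCR panel of 22 target genes, so that 2 of 22 genes are described. The panel was measured in 22 male Wistar rats, 4 months of age at the start. The C group held 5 rats not exposed to muscle injury, and no sham operation is described for them. In the 3D (n = 5), 14D (n = 6) and 28D (n = 6) groups the GA belly, and not the tendon, was frozen with an iron bar cooled in liquid nitrogen, and the CT was taken on the day the group is named for. No transgene or deletion separated the groups. The injured rats had xylazine and ketamine anesthesia, a skin incision and a suture for the surgery, which are not described for C. Muscle injury and surgery therefore cannot be told apart in comparisons with C. Cages held rats of the same group, so that cage and group cannot be told apart.

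Type I collagen is the main fibril protein of tendon and carries most of its tensile strength. COL1A1 encodes its α1 chain, which is combined with the α2 chain in the usual type I molecule. Type III collagen is built of identical COL3A1 chains, copolymerizes with type I into thinner fibrils and is known as an early collagen of healing tendon, later replaced by type I. The balance of both collagens is therefore often followed in tendon repair, at the mRNA or the protein level. Only mRNA was measured here.

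For each gene and rat the deposited cycle threshold (Ct) counts the amplification cycles needed to bring the TaqMan signal over a fixed threshold. Less mRNA gives a later Ct, and 1 cycle is about a 2-fold step. Log2 expression was taken from the deposited ΔCt, the Ct of the collagen minus that of RPLP0, the ribosomal reference gene. Its sign was reversed and the mean of C set to 0. Of the 44 values of both collagens, 4 were equal within 1e-06 to the mean of the other rats of the group and were left out. These were COL1A1 in replicate 4 of C and replicate 3 of 3D, and COL3A1 in replicate 1 of C and replicate 5 of 3D. Thus 40 values were used, and both genes together were measured in 18 rats. One collagen well had a Ct above 35, COL1A1 in replicate 2 of 3D, at 35.04. The sample was whole tendon, and fewer cells that make collagen cannot be told apart from less mRNA per cell. Tenomodulin (TNMD), scleraxis (SCX) and Mohawk (MKX), markers of tendon cells, were detected in 22 of 22 rats, with Ct ranges of 21.8 to 30.8, 27.2 to 33.7 and 26.5 to 36.6.

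Some rats stood apart from their group. Replicate 3 of 14D had an RPLP0 Ct of 29.3, against 26.3 to 27.6 in the other 14D rats and 27.8 to 30.0 in the 28D rats other than replicate 4. Replicate 4 of 28D had an RPLP0 Ct of 26.8, within the range of the other 14D rats and below that of the other 28D rats. In the Ct of the 20 target genes other than the collagens, each of these rats was compared with group means that left both of them out. Replicate 3 of 14D was nearer the mean of 28D for 19 genes, and replicate 4 of 28D nearer the mean of 14D for 16. Relative to RPLP0 these counts were 8 and 13 of 20. Both rats were kept under their labels, and what sets them apart was not tested. Where a comparison of groups turns on them, its value without them is given. Replicate 2 of 3D had the latest RPLP0 Ct, 32.3, and replicate 4 of C stood at 30.6 while the other C rats lay at 26.1 to 26.9.

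COL1A1 mRNA fell at 3 days, rose by 14 days to levels that overlapped those of C, and lay below all C rats in 5 of 6 rats at 28 days. Values are given in the order of the replicate numbers, without those left out. In C its log2 expression was -0.60, -0.40, 0.31 and 0.69, with a mean of 0 ± 0.60 (SD, n = 4). In 3D it was -3.001, -3.65, -1.83 and -2.49, with a mean of -2.74 ± 0.77 (SD, n = 4). Every 3D rat was below every C rat. In 14D the lowest rat was at -0.15, the median at 0.71 and the highest rat at 1.44, and the mean was 0.65 ± 0.60 (SD, n = 6). In 28D the values were -1.75, -0.92, -1.60, 1.58, -0.72 and -1.05, with a mean of -0.74 ± 1.21 (SD, n = 6). Replicate 4 was the highest COL1A1 value of the 20 measured, while the other 28D rats lay below all rats of C. Without it the mean of 28D was -1.21 ± 0.44 (SD, n = 5).

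Relative to RPLP0 the mean of COL3A1 mRNA was lowest at 14 days, where that of COL1A1 was highest, and COL3A1 varied more between rats of a group. From the Ct with no reference 14D was above 3D (log2 difference 0.83). The direct comparison of both collagens, given below, passed in 0 of 6 pairs of groups with all rats. In C its log2 expression was -0.52, -0.70, 0.43 and 0.78, with a mean of 0 ± 0.72 (SD, n = 4). In 3D it was -2.09, -3.91, -1.46 and 0.14, with a mean of -1.83 ± 1.67 (SD, n = 4), and 1 of the 4 rats lay among those of C. In 14D it was -3.88, -1.80, 0.49, -2.78, -2.98 and -3.12, with a mean of -2.34 ± 1.54 (SD, n = 6). Replicate 3 was the only 14D rat in the range of C, and without it the mean was -2.91 ± 0.75 (SD, n = 5). In 28D the values were -2.02, 0.31, -3.09, -2.41, 0.53 and 0.36, with a mean of -1.05 ± 1.63 (SD, n = 6). Replicates 2, 5 and 6 of 28D lay within the range of C and replicates 1, 3 and 4 below it. Within groups the SD of COL3A1, pooled over the 4 groups, was 1.48, the second largest of the 22 genes after TIMP-1 with 2.11, an inhibitor of matrix metalloproteinases. That of COL1A1 was 0.86, at rank 11.

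**Figure D1:**
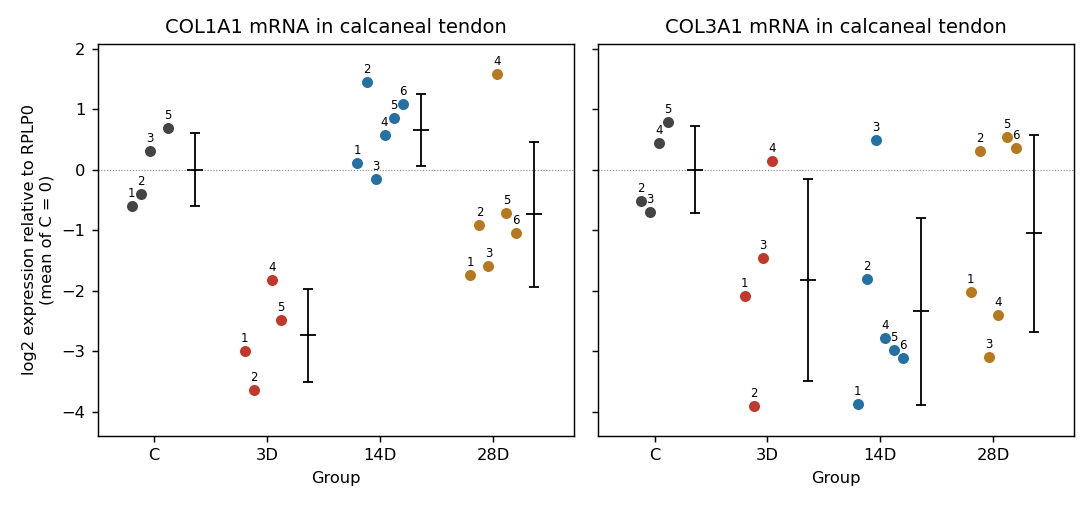
Log2 expression of COL1A1 (left) and COL3A1 (right) relative to RPLP0 in each rat of C, 3D, 14D and 28D, with the mean of C at 0. Points carry the replicate number, and the black marks are mean ± SD. The 3D rats lie below all C rats in COL1A1, and 5 of 6 14D rats lie below all C rats in COL3A1.

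The first question was whether the collagens differed between the 4 groups, each pair of which was compared with limma in one model over the 22 genes, with p-values adjusted over 132 tests and an adjusted p under 0.05 taken as passing. COL1A1 passed in 3 of the 6 pairs of groups and COL3A1 in 0 of 6, where 10.6% of all 132 tests passed. For COL1A1 the number was 1 of 6 with Dunn's procedure and 0 of 6 with linear values or adjusted exact permutation p-values in place of limma on the log2 scale. At an unadjusted p under 0.05 the limma fit held 1 pair of groups for COL3A1, 14D against C, and the exact permutation test also held 1, the same pair.

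COL1A1 was 6.69-fold lower in 3D than in C (log2 difference -2.74, SE 0.61, 95% interval -3.999 to -1.48). Its adjusted p from limma was 0.0117. COL1A1 was the only one of the 22 genes to pass between 3D and C (4.55% of genes), and 9.09% of genes had groups that did not overlap there. The exact permutation p was 0.0286, the smallest that 4 against 4 rats can give. The panel as a whole was lower too, with a median log2 difference of -0.77 over the 22 genes. With the mean of the panel's target genes as the reference, called the panel mean, COL1A1 was still lower by a log2 difference of -2.19 (limma adjusted p = 0.0222). Some target genes lack values in some rats, so this mean need not rest on the same genes in every rat. With the mean of the 8 target genes measured in all rats, added after the data were seen, the difference was -1.93 (limma adjusted p = 0.0445). In the Ct alone, with no reference, it was -5.02 (limma adjusted p = 0.0243), where the late replicate 2 enters unscaled. The call was lost with Dunn's procedure (adjusted p = 0.0857) and with linear values (limma adjusted p = 0.362).

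COL1A1 mRNA then rose 10.5-fold by 14D when compared with 3D (log2 difference 3.39, SE 0.55, 95% interval 2.25 to 4.54). The limma adjusted p was 0.00053, and the lowest 14D rat was above the highest 3D rat (exact permutation p = 0.00476, which no arrangement of these rats can go below). Between these groups 27.3% of genes passed, all higher in 14D, and 13.6% did not overlap. The median difference over the 22 genes was 0.71. Between 14D and C the log2 difference of COL1A1 was 0.65 (SE 0.55, 95% interval -0.50 to 1.80, limma adjusted p = 0.516). Taken from the Ct with no reference, it was -0.04. No gene passed there (0%). The interval leaves room for a level 1.80 higher on the log2 scale, so that a return to the level of C is not shown by the missed threshold.

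COL1A1 was 3.998-fold higher in 28D than in 3D (log2 difference 1.999, SE 0.55, 95% interval 0.85 to 3.15, limma adjusted p = 0.0262), again with no overlap, where 31.8% of genes passed and 27.3% did not overlap. This call was lost without replicate 1 of 3D (limma adjusted p = 0.0970) or without replicate 2 of 3D (limma adjusted p = 0.0876). It was also lost with the panel mean as the reference (log2 difference 1.10, limma adjusted p = 0.224), and the panel median was 1.07 higher in 28D than in 3D. With the mean of the 8 target genes measured in all rats the difference was 0.47 (limma adjusted p = 0.673). From 14D to 28D the log2 difference of COL1A1 was -1.40 (SE 0.49, 95% interval -2.42 to -0.37, limma adjusted p = 0.0786), with 5 of 6 rats of 28D below all rats of 14D, and 0% of genes passed. It passed without replicate 4 of 28D (log2 difference -1.86, limma adjusted p = 0.00635) and with the panel mean as the reference (-1.69, limma adjusted p = 0.0222). It also passed with the mean of the 8 target genes measured in all rats (-1.96, limma adjusted p = 0.00785). Between 28D and C it was -0.74 (95% interval -1.89 to 0.41, limma adjusted p = 0.452), and again 0% of genes passed. The order of the means was thus 14D, C, 28D and 3D, and of the neighbours in this order only 28D and 3D differed by the test.

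COL3A1 differed most from C at 14 days, 5.08-fold lower in the means (log2 difference -2.34, SE 0.87, 95% interval -4.15 to -0.54). This did not pass (limma adjusted p = 0.0940), and the exact permutation p was 0.0381. Without replicate 3 of 14D the log2 difference was -2.91 and it passed (limma adjusted p = 0.0274). Between 3D and C the difference was -1.83 (95% interval -3.81 to 0.15, limma adjusted p = 0.275), with 3 of 4 rats of 3D below all of C. It was -1.14 without replicate 2 of 3D. Between 28D and C it was -1.05 (95% interval -2.86 to 0.76, limma adjusted p = 0.506), and -0.65 without replicate 3 of 28D. These comparisons share the C rats, and their intervals are wide.

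Among the injured groups COL3A1 showed no difference past the test, and the signs of its differences were not stable to the scaling. Between 14D and 3D the log2 difference was -0.51 (limma adjusted p = 0.780), but 0.83 from the Ct with no reference. Between 28D and 3D it was 0.78 (limma adjusted p = 0.652), but -0.22 with the panel mean as the reference. With the mean of the 8 target genes measured in all rats it was -0.76. Without replicate 2 of 3D it was 0.08, and without replicate 4 of 3D 1.43. Between 28D and 14D it was 1.29 (limma adjusted p = 0.336), but -0.43 from the Ct with no reference. The order of its means was C, 28D, 3D and 14D, and no neighbours in this order differed by the test.

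The Ct values show what the reference adds. The Ct of COL1A1 ranged from 24.7 to 26.7 in C, 28.8 to 35.04 in 3D, 24.4 to 28.6 in 14D and 24.4 to 30.9 in 28D. The latest 14D value was that of replicate 3 and the earliest 28D value that of replicate 4. The Ct of COL3A1 ranged from 21.5 to 26.3 in C, 23.7 to 32.3 in 3D, 24.9 to 26.7 in 14D and 23.6 to 28.7 in 28D. In 14D the COL3A1 Ct was narrow (25.6 ± 0.60, SD, n = 6), and replicate 3, the rat that stands out in log2 expression, had the earliest COL3A1 Ct of its group together with the latest RPLP0 Ct. The mean RPLP0 Ct of the groups lay between 27.1 (14D) and 28.8 (28D), with SDs of 1.15 to 2.37 over 5 or 6 rats. The part of these RPLP0 differences in the collagen results was measured only through the settings with another reference or none.

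**Figure D2:**
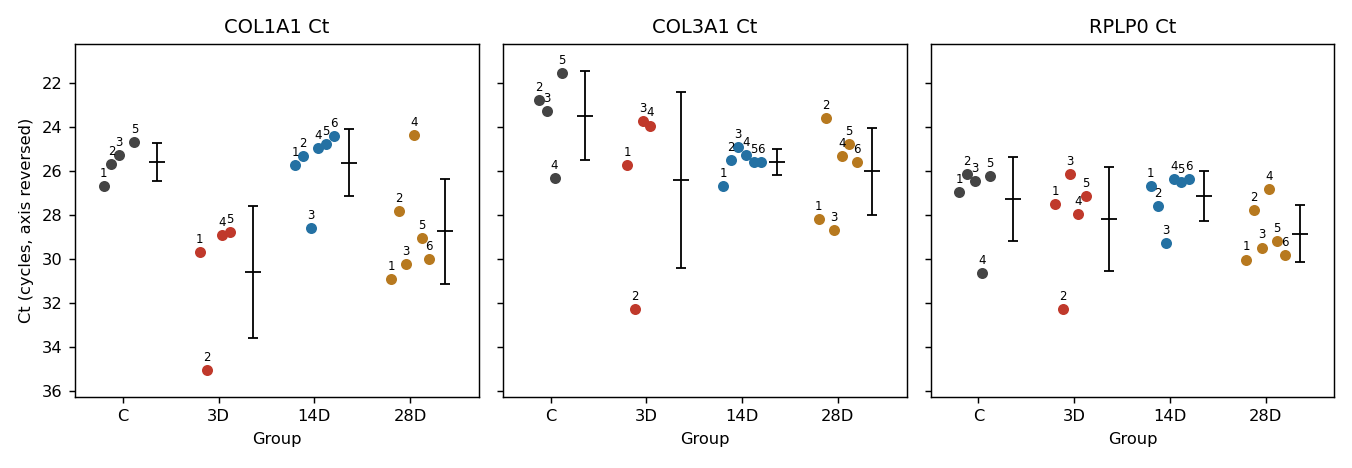
Ct of COL1A1, COL3A1 and RPLP0 in each rat by group, in cycles on a reversed axis so that more mRNA is higher. The RPLP0 Ct was inferred from Ct minus ΔCt of the target genes. Points carry the replicate number, and the black marks are mean ± SD. Replicate 3 of 14D and replicate 4 of 28D stand apart in COL1A1 and RPLP0, and replicate 2 of 3D is latest in all 3 genes.

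The balance of the collagens was compared with no reference gene, as the Ct of COL3A1 minus the Ct of COL1A1 in the same rat. A higher value means less COL3A1 relative to COL1A1. The level of this difference depends on both assays, and only its differences between groups are read. In C it was -2.91, -2.02 and -3.13 cycles (-2.69 ± 0.58, SD, n = 3), and in 3D -3.94, -2.77 and -5.00 cycles (-3.90 ± 1.12, SD, n = 3). In 14D it was 0.96, 0.22, -3.67, 0.32, 0.80 and 1.18 cycles, with a mean of -0.03 ± 1.82 (SD, n = 6). Here 5 of 6 rats stood above every rat of C and 3D, and replicate 3 below every rat of C. In 28D it was -2.76, -4.26, -1.53, 0.96, -4.28 and -4.44 cycles, with a mean of -2.72 ± 2.13 (SD, n = 6). Replicate 4 lay in the range of 14D and the other 5 rats of 28D below all 14D rats but replicate 3.

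**Figure D3:**
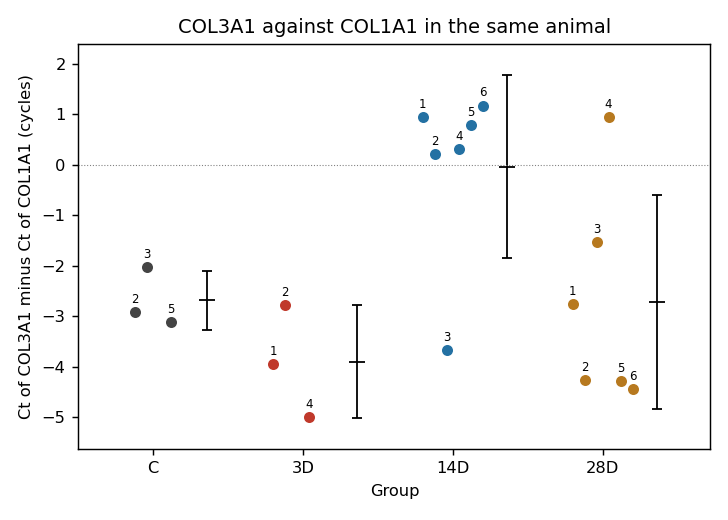
Ct of COL3A1 minus Ct of COL1A1 in each rat, in cycles, by group, with replicate numbers and mean ± SD in black. A higher point means less COL3A1 relative to COL1A1. In 14D 5 of 6 rats lie between 0.22 and 1.18, above all rats of C and 3D.

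In the means, COL3A1 relative to COL1A1 was 14.6-fold lower in 14D than in 3D (Ct difference higher by 3.87 cycles, SE 1.13, 95% interval 1.501 to 6.24). The test was run over the Ct differences of all 231 gene pairs, with p-values adjusted over 1386 tests. This contrast did not pass (limma adjusted p = 0.0807), and the exact permutation p was 0.0238. Between these groups 5.63% of gene pairs passed. Between 14D and C the difference was 2.65 cycles, or 6.29-fold (SE 1.13, 95% interval 0.28 to 5.02, limma adjusted p = 0.223), where 0% of gene pairs passed and 4.33% had groups that did not overlap. Between 28D and 14D it was -2.69 cycles, or 6.43-fold in the other direction (SE 0.92, 95% interval -4.62 to -0.75, limma adjusted p = 0.149), where 2.6% passed. None of the 6 pairs of groups passed with limma over all rats, while 3 of 6 had an unadjusted limma p under 0.05 and 2 of 6 an exact permutation p under 0.05.

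These calls turned on the rats that stood apart. Without replicate 3 of 14D the difference passed between 14D and 3D (4.60 cycles, limma adjusted p = 0.0174) and between 28D and 14D (-3.41 cycles, limma adjusted p = 0.0293). Without replicate 4 of 28D both passed as well (limma adjusted p = 0.0159 and 0.0154). Without both rats, a setting chosen after their values were seen, 14D differed from C by 3.38 cycles (limma adjusted p = 0.00408), from 3D by 4.60 cycles and from 28D by 4.15 cycles (limma adjusted p = 0.00042 for each). With all rats, the differences of 3D from C (-1.22 cycles, 95% interval -3.95 to 1.52, limma adjusted p = 0.678), 28D from C (-0.03, 95% interval -2.40 to 2.34, limma adjusted p = 0.994) and 28D from 3D (1.18, 95% interval -1.19 to 3.55, limma adjusted p = 0.624) had intervals that held 0. In 3D against C and in 28D against 3D 1.3% of gene pairs passed, and in 28D against C 0%. Groups that did not overlap were found for 15.6%, 7.79% and 5.19% of gene pairs in these comparisons, and not for the pair of collagens. In 3D against C, 3 against 3 rats cannot give an exact permutation p below 0.1.

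With all rats kept, the 2 collagens showed little correlation once scaled to RPLP0. Over the 18 rats with both measured, Pearson's r of their log2 expression was 0.03 and Spearman's rho -0.04. After removal of the group means r was 0.09. With the panel mean as the reference r was -0.35, and with the Ct alone, in which both genes share the amount and quality of the cDNA of a rat, it was 0.69. The panel mean holds both collagens, which tends to lower their r, so -0.35 is not read as an opposed course. These are descriptions over rats of 4 groups that share the reference gene. Replicate 3 of 14D had the lowest COL1A1 and the highest COL3A1 of its group. Replicate 4 of 28D had the highest COL1A1 of its group, with a COL3A1 below the range of C. All r values hold both rats, and r without them was not calculated.

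Measured against each of the 21 other target genes, rather than RPLP0, COL1A1 was the gene of the panel that stood out. Of the 25 gene pairs and group comparisons that passed among 1386 (1.8%), 20 held COL1A1 and 0 held COL3A1. Each gene is in 9.09% of the gene pairs, and the next gene after COL1A1, the cell surface proteoglycan SDC-4, was in 4. The 20 share the COL1A1 values and are not separate pieces of evidence. Counts of partner genes by direction, given below, show only where a gene ranks in the panel. ADAMTS-4, outside the lists for naming, was higher relative to 21 of 21 genes in 3D and in 14D against C. The same count was found for TNC in 28D against C and ERG1 in 28D against 14D. In 28D against 3D MKX was higher and TIMP-1 lower relative to 21 of 21 genes.

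In 3D against C COL1A1 was lower relative to 21 of 21 genes, with a median log2 difference of -1.96 and a range of -4.13 to -1.09. The difference passed against 3 of them. These were SMAD-2, a transducer of TGF-β signals (-2.18, limma adjusted p = 0.0157), SDC-4 (-2.33, limma adjusted p = 0.0194) and the cytokine IL-6 (-2.64, limma adjusted p = 0.0437). SDC-4 and IL-6 are outside the lists of genes chosen for naming and are given because they passed. In 14D against 3D COL1A1 was higher relative to 21 of 21 genes (median 2.45, range 1.47 to 5.43) and passed against 12. Of these 12, SMAD-2 had the smallest adjusted p (2.75, limma adjusted p = 0.00264). Others were SMAD-3 (1.91, limma adjusted p = 0.0123), the tendon transcription factor SCX (3.38), TGF-β1, which stimulates collagen synthesis (2.44), the fibril-binding proteoglycans BGN (2.49) and FMOD (2.31), the protease MMP-2 (2.22) and the protease inhibitor TIMP-1 (5.43). The other 4 were SDC-4, IL-6, VEGF and TNMD, which are outside those lists or serve as tendon cell markers. So the 10.5-fold rise from 3D to 14D was not shared to the same degree by these transcripts.

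In 28D against 14D COL1A1 was lower relative to 21 of 21 genes (median -1.76, range -2.72 to -0.81) and passed against 5. These were TNMD, a membrane protein of mature tendon cells (-2.41, limma adjusted p = 0.0123), SMAD-2 (-1.71, limma adjusted p = 0.0194), the transcription factor MKX (-1.88, limma adjusted p = 0.0202), SMAD-3 (-1.41, limma adjusted p = 0.0416) and SDC-4 (-1.74, limma adjusted p = 0.0416). In 28D against C it was lower relative to 21 of 21 genes as well (median -1.20), in 14D against C higher relative to 18 (median 0.53) and in 28D against 3D higher relative to 19 (median 0.88), and with all rats none of these passed. In 28D against C 21 gene pairs passed without replicate 4 of 28D, 12 of them with COL1A1.

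COL3A1 was lower in 14D than in C relative to 21 of 21 genes, with a median of -2.36 and a range of -3.26 to -1.11, and passed against none. It was lower than in C relative to 20 of 21 genes in 3D (median -0.85) and 20 of 21 in 28D (median -1.42). In 14D against 3D it was lower relative to 21 of 21 (median -1.52) and in 28D against 14D higher relative to 20 of 21 (median 0.93). In 28D against 3D it was lower relative to 15 of 21 (median -0.46). These directions place COL3A1 within the panel and are not a test, and in 14D against C ADAMTS-4 was higher relative to 21 of 21 genes. The counts that passed depend on single rats. Without replicate 3 of 14D, 12 gene pairs passed between 14D and C and all 12 held COL3A1.

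**Figure D4:**
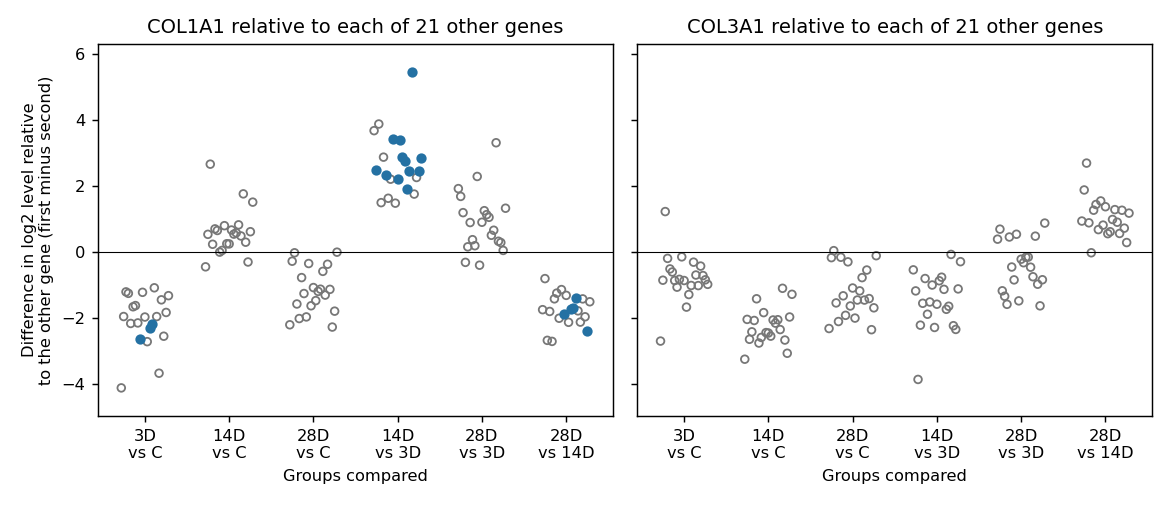
Difference between groups in the log2 level of COL1A1 (left) and COL3A1 (right) relative to each of the 21 other target genes, from the Ct alone with no reference gene, where each point is 1 gene and the first-named group is compared with the second. Filled points passed at an adjusted p under 0.05 over 1386 tests. COL1A1 has 3 filled points in 3D against C, 12 in 14D against 3D and 5 in 28D against 14D, and COL3A1 has 0.

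When each of the 22 rats was left out in turn, COL1A1 was in most of the passing gene pairs of 14D against 3D and of 28D against 14D in 22 of 22 fits, while their number moved. In 14D against 3D it went from 2 pairs without replicate 1 of 3D, both with COL1A1, to 23 without replicate 4 of 28D, 19 with COL1A1. In 28D against 14D it went from 1 pair without replicate 2 of 14D to 24 without replicate 4 of 28D, 17 with COL1A1. In 3D against C it went from 0 pairs without replicate 1 of 3D to 14 without replicate 4 of 28D, 10 with COL1A1. A rat outside the compared groups moves these numbers through the spread, which is shared by the 4 groups, and through the adjustment over all 1386 tests. Without both replicate 3 of 14D and replicate 4 of 28D, chosen after their values were seen, 167 of the 1386 tests passed, 71 with COL1A1 and 35 with COL3A1. COL1A1 was then in 14 of 20 passing pairs in 3D against C, 14 of 32 in 28D against C, 20 of 36 in 14D against 3D and 19 of 37 in 28D against 14D. COL3A1 was in 17 of 19 in 14D against C, 7 of 36 in 14D against 3D and 11 of 37 in 28D against 14D. In 28D against 3D 2 of 23 held COL1A1 and 0 held COL3A1.

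Genes that act on collagen were read beside the collagens, relative to RPLP0. Their calls were all against 3D, where 27.3% of the 22 genes passed in 14D and 31.8% in 28D, so that the count of each list is read against those shares. Of the proteoglycans of fibril assembly (BGN, DCN and FMOD), 1 of 3 passed, DCN, which binds type I fibrils and limits their width. It was higher than in 3D by a log2 difference of 1.91 in 14D (limma adjusted p = 0.0403) and 2.32 in 28D (limma adjusted p = 0.0177). Of the turnover genes MMP-2, TIMP-1 and TIMP-2, 2 of 3 passed. MMP-2, a gelatinase, was higher by 1.18 in 14D (limma adjusted p = 0.0291) and 1.11 in 28D (limma adjusted p = 0.0403), and TIMP-2, its inhibitor, by 1.56 and 1.59 (limma adjusted p = 0.0145 for each). The medians of the fibril assembly and turnover lists were 0.90 and 1.18 in 14D against 3D, beside 0.71 for all 22 genes, and 0.32 and 1.11 in 28D against 3D, beside 1.07.

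Of 6 regulators of collagen transcription (TGF-β1, SMAD-2, SMAD-3, SCX, MKX and ERG1, matched to the rat symbol Egr1) 1 passed. This was MKX, a homeobox factor needed for normal type I collagen levels in mouse tendon. It was higher than in 3D by 1.501 in 14D (limma adjusted p = 0.0403) and 1.99 in 28D (limma adjusted p = 0.0145). The median of the regulators in 14D against 3D was 0.70, beside 0.71 for all genes and 3.39 for COL1A1, and in 28D against 3D it was 1.19 beside 1.07 and 1.999. Of the other matrix proteins, fibronectin (FN) and tenascin C (TNC), FN was higher by 1.77 in 14D (limma adjusted p = 0.0226) and 1.63 in 28D (limma adjusted p = 0.0291). None of these genes passed in a comparison with C or between 28D and 14D, and none was lower in a comparison that passed. Of the tendon cell markers, 2 of 3 passed in 28D against 3D, MKX and TNMD, the latter higher by 1.53 (limma adjusted p = 0.0291), and SCX did not. In 14D against 3D 1 of 3 passed, MKX. The mean log2 expression of the 3 markers ranged from -0.36 to 0.30 in the rats of C, -1.91 to 0.23 in 3D, -0.30 to 0.51 in 14D and 0.40 to 1.29 in 28D. The marker level was thus higher in every 28D rat than in any 3D rat, as COL1A1 was, where 27.3% of genes did not overlap. It was also higher in every 28D rat than in any C rat, whereas COL1A1 lay below all C rats in 5 of 6 rats of 28D. In 28D against C 9.09% of genes did not overlap and 0% passed, the markers and COL1A1 (limma adjusted p = 0.452) included. Opposite changes from C are therefore not shown. The part of the marker level in the COL1A1 result was not tested.

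The genes with the pattern most like COL1A1 over 20 rats were MMP-2 (Pearson's r = 0.77), SMAD-3 (r = 0.76) and TIMP-2 (r = 0.76). After removal of the group means r was 0.59, 0.84 and 0.57, so that SMAD-3 followed COL1A1 within groups more closely than MMP-2 and TIMP-2 did. With the panel mean as the reference r was 0.59, 0.65 and 0.63. The genes most like COL3A1 were VEGF, an angiogenic growth factor (r = 0.64, n = 20), the growth factor IGF-1a (r = 0.60, n = 18) and TNMD (r = 0.58, n = 20). With the panel mean as the reference these were 0.45, 0.40 and 0.30. No gene was among the 3 most like genes of both collagens. All genes of a rat share its cDNA and RPLP0 Ct, and these r values are descriptions.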

How the data were processed

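The authors extracted total RNA from the CT, treated it with DNase I, reverse transcribed it and ran TaqMan qRT-PCR in technical duplicates, with the samples of a gene in a single run. The deposited tables hold the Ct in cycles, with no normalization, and ΔCt, for which the authors subtracted the Ct of RPLP0, a log2 scale with reversed sign. Another deposited table holds relative expression, a fold (ratio) against C, in which 1 collagen value, COL1A1 in replicate 3 of 14D, lay over 0.1 log2 from the value that follows from ΔCt (1.62 against 0.90). It was used as an alternative. Counting depth does not apply, and the number of rats limits the precision.

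Each rat was a replicate, with groups and numbers from the labels. Of 484 panel values, 22 equal within 1e-06 to the mean of the other rats of their group and 2 blank ones were left out, which left 460. In the fits on the Ct, the DCN Ct of a rat in which it repeated the BGN Ct was also left out. The setting with all deposited values kept it. limma 3.58.1 in R 4.3.3 was fitted with 4 group means and no covariates. P-values of 22 genes, and of 231 gene pairs, over 6 pairs of groups were adjusted by the Benjamini-Hochberg method over 132 and 1386 tests. Exact two-sided permutation tests went over all regroupings of the rats with numpy 2.4.6. Ranks used scipy 1.17.1. The code was tested on simulated panels.

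The collagens, the gene lists, the naming rule (list members that passed, and the 3 most similar genes) and the tests were chosen with earlier results of these data known. Alternatives changed the reference, the filled-in and late values, the scale, the rats and the test. The least squares and Dunn's procedures with Bonferroni adjustment follow the methods of the study. All 22 symbols, with ERG1 taken as Egr1, were found in a RefSeq table of the GRCr8 assembly, used for names only. The build of the assays is not given in the sources used here, and further reference genes and CTGF were not used here.

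Same-numbered rats of different groups were compared by their deviations from the group means over genes, which gave 31 pairs of rats with r from -0.86 to 0.43 and a median of -0.09. The numbers were not taken as pairs.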

Additional observations from a re-analysis of the deposited data

Results flagged for a closer look

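Among 14 sets of 4 to 6 rats tested with Dixon's criterion, of which chance marks about 1 in 20, 3 held a rat far from the others of its group. COL1A1 in replicate 4 of 28D had a log2 expression of 1.58, while the other 5 rats of 28D lay between -1.75 and -0.72. The Ct of COL3A1 minus that of COL1A1 in replicate 3 of 14D was -3.67 cycles, while the other 5 rats of 14D lay between 0.22 and 1.18. The inferred RPLP0 Ct of replicate 4 of C was 30.6, while the other 4 rats of C lay between 26.1 and 26.9. This rat enters the C group of COL3A1, at a log2 expression of 0.43, and its COL1A1 value was left out.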

How the results depend on the processing

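Of the alternatives that kept the rats, or left out a pair of them, 237 values kept direction and side of the threshold, 14 lost it, 10 gained it, 5 changed sign and 7 counts moved by over 1.5 times. Causes were not tested. With limma and the Benjamini-Hochberg method unless stated, COL1A1 in 28D against 3D lost its call with Holm adjustment (1.999, adjusted p = 0.198), Ct above 35 as missing (1.70, 0.0873), the Ct alone (1.87, 0.396), only these groups in the model (1.999, 0.108), Dunn's procedure (1.999, 0.485), adjusted exact permutation p (1.999, 0.105), linear values (a difference in fold of 0.71, 0.414), the mean of all target genes (1.10, 0.224) and the mean of the 8 target genes measured in all rats (0.47, 0.673), a setting added after the data were seen. COL1A1 in 3D against C lost it with linear values (-0.90, 0.362), adjusted exact permutation p (-2.74, 0.169) and Dunn's procedure (-2.74, 0.0857), and in 14D against 3D with linear values (1.52, 0.0662) and adjusted exact permutation p (3.39, 0.0786). COL1A1 in 28D against 14D gained it with the mean of all target genes (-1.69, 0.0222), the mean of the 8 (-1.96, 0.00785), the deposited fold table (-1.54, 0.0347) and without replicate 3 of 14D and replicate 4 of 28D (-2.02, 0.00371). The number of pairs of groups passing for COL1A1, 3, was 0 with linear values, 0 with adjusted exact permutation p and 1 with Dunn's procedure.

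Signs turned with the Ct alone for COL1A1 in 14D against C (-0.041) and COL3A1 in 14D against 3D (0.83) and 28D against 14D (-0.43), and for COL3A1 in 28D against 3D with the mean of all target genes (-0.22) and of the 8 (-0.76). The Ct difference in 14D against 3D passed with least squares and Bonferroni adjustment (3.87, 0.0431) and with all deposited values (4.15, 0.0337), 1 pair of groups each where the main count was 0. Without both rats COL3A1 passed in 14D against C (-2.91, limma adjusted p = 0.0271), 1 pair where the main count was 0, and the Ct difference in 3 pairs (3.38, adjusted p = 0.00408 in 14D against C, and 4.60 and -4.15, 0.00042, in 14D against 3D and 28D against 14D).

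With each rat left out in turn, COL1A1 ranged from -3.04 to -2.44 in 3D against C, 3.09 to 3.698 in 14D against 3D, 1.53 to 2.30 in 28D against 3D and -1.86 to -1.19 in 28D against 14D. COL3A1 ranged from -2.49 to -1.14 in 3D against C, -1.37 to -0.65 in 28D against C, 0.08 to 1.43 in 28D against 3D, -2.91 to -2.04 in 14D against C and -1.21 to 0.14 in 14D against 3D, where the sign turned without replicate 4 of 3D. The Ct difference ranged from 2.41 to 3.38 in 14D against C, 3.32 to 4.60 in 14D against 3D, -3.42 to -2.34 in 28D against 14D and -0.77 to 0.31 in 28D against C. There the sign turned without replicate 3 of C (0.30) or replicates 2, 5 or 6 of 28D (0.28, 0.28 and 0.31). Pairs of groups passing ranged from 2 to 4 for COL1A1, 0 to 1 for COL3A1 and 0 to 2 for the Ct difference. With the replicate number as a block, which pairs no rats by design, no call of COL1A1, COL3A1 or their Ct difference between groups changed (COL1A1 in 14D against 3D 3.52, limma adjusted p = 0.00033). The gene pairs with COL1A1 that passed went from 3 to 5 in 3D against C, from 12 to 9 in 14D against 3D and from 5 to 1 in 28D against 14D. In 5 of 31 checks a rat correlated best with its own number in another group.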
